A study of Mus musculus with 9 samples.

Results

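The 32 genes described here encode enzymes and regulators of cholesterol and fatty acid synthesis. They were chosen by symbol for their known roles, with earlier results of these data known, and all 32 are among the 28764 gene symbols of the table. RNA was measured in phagocytes of the peritoneal wall, the tissue lining the abdominal cavity, of Cx3cr1gfp/+ Ccr2rfp/+ mice, an F1 cross of 2 reporter lines from Jackson Laboratories. All groups carry both reporter alleles, a green one at the fractalkine receptor gene Cx3cr1 and a red one at the chemokine receptor gene Ccr2, and all animals had been injected intravenously with 50 µg of Dextran-Cascade Blue on the previous day. Within CD11b-positive, Ly6G-negative cells, the double-negative population lacked both reporters and surface MHC class II and had taken up dextran (85 to 90% of the gate, the majority of sessile RTM, or resident tissue macrophages, in the labels). The CCR2-RFP population carried MHC class II and the red reporter (10 to 15%, called migratory tissue monocytes), and the CX3CR1-GFP population carried MHC class II and the green reporter (0.5 to 1.5%, called sessile RTM). Each population has 3 libraries, from the sorts labelled 1, 2A and 2B. The labels used here name neither the age nor the sex of the animals.

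Cholesterol is built from acetyl-CoA through mevalonate, isoprenoid units and squalene, and fatty acids are built by acetyl-CoA carboxylase and fatty acid synthase, then elongated and desaturated. The genes of both routes are classic targets of the sterol regulatory element-binding proteins (SREBPs), transcription factors held in the endoplasmic reticulum by SCAP and INSIG when sterol is plentiful and released by proteolysis when it is scarce. Macrophages also take up cholesterol with lipoproteins and dying cells and pass it on through transporters that the liver X receptors (LXRs) control.

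SREBPs bind a sterol regulatory element and act with the factors NF-Y and Sp1, so the stretch before the start of 2 members that were higher in CCR2-RFP cells than in double-negative cells is shown first. Hmgcs1 is the member with a match to the element in this window, and Srebf2 encodes the factor itself. Capitals mark matches, on either strand, to the sterol regulatory element TCACNCCAC, the NF-Y box CCAAT and the Sp1 box GGGCGG. Both come from RefSeq (build GRCm38.p6), are written 5′ to 3′ on the plus strand and end before the first transcribed base. For Srebf2, GENCODE M21 starts the gene earlier than RefSeq, so the 88 bases next to the RefSeq start, which hold 3 of its 4 GGGCGG matches, are left out and 162 are shown.
Hmgcs1, chr13:119690101-119690350: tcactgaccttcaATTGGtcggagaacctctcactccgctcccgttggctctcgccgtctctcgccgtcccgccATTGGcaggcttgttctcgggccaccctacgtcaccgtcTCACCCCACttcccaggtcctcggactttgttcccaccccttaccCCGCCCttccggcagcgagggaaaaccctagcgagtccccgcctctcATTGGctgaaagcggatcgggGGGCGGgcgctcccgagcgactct
Srebf2, chr15:82147019-82147180: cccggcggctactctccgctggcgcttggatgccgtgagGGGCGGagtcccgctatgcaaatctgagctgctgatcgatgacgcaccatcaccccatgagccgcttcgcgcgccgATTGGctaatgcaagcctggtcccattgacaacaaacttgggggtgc

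Of the 32 members, 25 had an entry in the promoter table, with 33 starts in all. In the 250 bases before the start, a CCAAT match was found for 20 of 25 members (80.0%) and for 37.5% of all 27025 genes in that table. A GGGCGG match was found for 20 of 25 members (80.0%) and for 35.4% of all genes. The stricter TCACNCCAC was found for 1 member, Hmgcs1, and for 1.22% of all genes. Its match, TCACCCCAC, lies 137 to 129 bases before the start, and the nearest CCAAT matches on either side, both on the minus strand, lie at 176 to 172 and 45 to 41 bases. The Msmo1 window, not printed, held 3 CCAAT and 2 GGGCGG matches. These are matches of letters in a window of fixed length, given as a description.

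Values are Salmon's TPM, a share of all transcripts that is scaled for transcript length, so that levels can be set side by side between genes. Over all listed genes TPM summed to 324050 to 357087 in double-negative, 356787 to 382828 in CCR2-RFP and 278579 to 301604 in CX3CR1-GFP libraries. Over all transcripts TPM has the same total in every library, so the listed genes hold only a part of it, which differed between libraries. Sequencing depth is unknown because TPM keeps no read count. Nothing in the labels names the animal behind each library, so that the spread between libraries may be partly technical. Of 7 macrophage markers, Csf1r, Adgre1, Mertk, Fcgr1, C1qa and C1qb were lower in every CCR2-RFP library than in all 6 others, and Cd68 overlapped. Csf1r was 61.2 to 67.7 TPM in CCR2-RFP and 174 to 229 TPM in the others, and Fcgr1 0.106 to 2.01 and 10.5 to 14.7 TPM. Ccr2 was 95.4 to 115 TPM in CCR2-RFP libraries and 1.65 to 6.68 TPM in the others, and of the other 4 monocyte genes S100a4 was 202 to 271 TPM in CCR2-RFP and 17.3 to 54.5 TPM in the others, Lyz2 1931 to 2429 and 975 to 1503 TPM, and Ly6c2 and Plac8 at most 1.96 and 3.41 TPM in any library. RNA of other cells was also listed. The summed TPM of 7 skeletal muscle genes was 928 in CCR2-RFP 2A and 1598 in CX3CR1-GFP 2A. It was 44.5 and 37.9 in CCR2-RFP 1 and 2B, 255 to 336 in double-negative libraries, and 268 and 187 in CX3CR1-GFP 1 and 2B. The sums for mesothelial, endothelial, neutrophil and lymphocyte genes were at or below 20.8 TPM in every library, for mast cell genes at or below 34.0 TPM (CCR2-RFP 2A) and for fibroblast genes 13.3 to 131 TPM. A single gene, Siglece, held 61107 to 87908 TPM in CX3CR1-GFP and 102783 to 123879 TPM in the other libraries, which lowers or raises the TPM of all other genes. The comparisons were therefore repeated on TPM rescaled without it, Rn18s and the mitochondrial and ribosomal protein genes (the rescaled TPM). This rescaling also gives the remaining listed genes the same sum in every library, which removes the population differences in the listed total. The effects of these changes were not separated. In bulk samples, fewer cells that express a gene and less RNA per cell cannot be told apart.

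The synthesis genes were expressed at low levels in all 3 populations. Their summed TPM was 85.1, 86.7 and 59.6 in double-negative, 103, 122 and 97.0 in CCR2-RFP and 94.9, 136 and 86.0 in CX3CR1-GFP cells, in the order of sorts 1, 2A and 2B that is kept below. On the TPM as listed, the lowest CCR2-RFP sum was above the highest double-negative sum, and the CX3CR1-GFP sums overlapped both. The total over all listed genes was lowest in CX3CR1-GFP libraries, and higher in CCR2-RFP than in double-negative libraries within each sort. The member sums were not repeated on the rescaled TPM, so their order may depend on the scale. The mean was highest in CCR2-RFP cells for 20 members, in CX3CR1-GFP cells for 8 and in double-negative cells for 4. This count includes members too low to be tested, and no such count over all genes was made. It also depends on the scale. Of the 23 members tested below, 7 had a positive log2 difference in CX3CR1-GFP minus CCR2-RFP, and 12 had one on the rescaled TPM. Of the 32 genes, 23 had 3 or more of the 9 libraries at 1 TPM or above and were tested. The other 9, Mvk, Mvd, Lss, Tm7sf2, Hsd17b7, Acat2, Fasn, Elovl6 and Fads2, stayed at or below 1.88 TPM in every library.

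**Figure D1:**
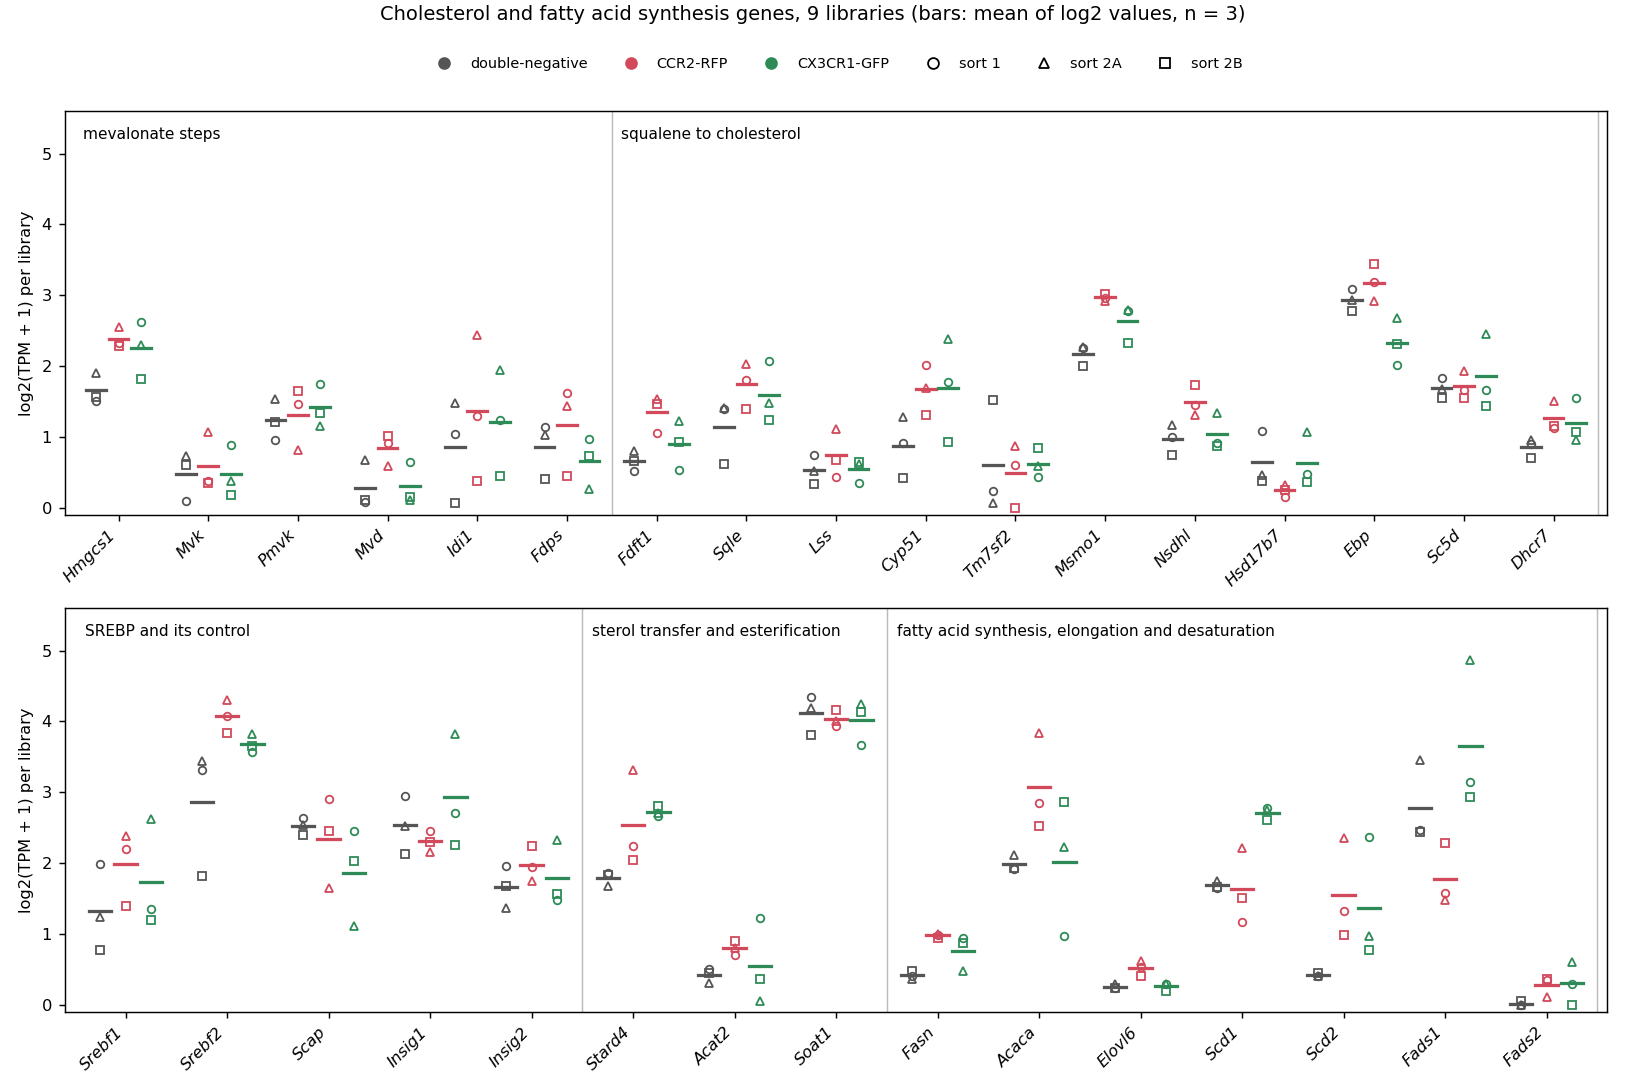
The vertical axis gives log2(TPM + 1) in each library and the horizontal axis the 32 members, ordered by role. Populations differ in colour and sorts in marker shape, and bars are the mean of 3 log2 values. Soat1, Srebf2, Fads1 and Acaca reach the highest values, Fads1 with 28.2 TPM in CX3CR1-GFP 2A, and 23 members stay below 6 TPM in every library.

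Each pair of populations was compared on log2(TPM + 1) with limma, over 10136 genes that passed the same filter, and a gene is said to be called, or to rise or fall, at a Benjamini-Hochberg adjusted p below 0.05 over all of them. In CCR2-RFP against double-negative cells 3 of 23 tested members were higher (13.0%) and none was lower, where 14.9% of all genes were higher and 9.88% lower (24.8% in all). In CX3CR1-GFP against double-negative cells limma called 0 of 23, where it called 2.77% of all genes, and at an unadjusted p below 0.05 it gave 5 higher and 1 lower (15.0% of all genes passed in either direction). In CX3CR1-GFP against CCR2-RFP cells 2 of 23 were higher and 1 was lower, where 8.96% and 17.3% of all genes were (26.3% in all). The share of members called was thus close to or below that of all genes in each comparison. Full separation of the libraries, with no overlap, was seen for 11 of 23 members in CCR2-RFP against double-negative cells (42.7% of all genes), 7 in CX3CR1-GFP against double-negative (21.1%) and 5 in CX3CR1-GFP against CCR2-RFP (39.4%). The median log2 fold change over the 23 members was 0.52 against 0.09 over all genes tested in CCR2-RFP minus double-negative, 0.36 against -0.03 in CX3CR1-GFP minus double-negative and -0.16 against -0.11 in CX3CR1-GFP minus CCR2-RFP. The first pair of these comparisons shares the double-negative libraries, and the filter favours genes that are high in any 1 population, so these medians describe the tested members only. They also depended on single libraries. The member median in CCR2-RFP minus double-negative was 0.33 without double-negative 2B. In CX3CR1-GFP minus double-negative it was 0.08 without CX3CR1-GFP 2A, with 12 of 23 members positive in place of 19, 0.19 without double-negative 2B and 0.61 without CX3CR1-GFP 2B. In CX3CR1-GFP minus CCR2-RFP it ran from -0.31 without CCR2-RFP 2B and -0.25 without CX3CR1-GFP 1 to -0.05 without CCR2-RFP 2A and -0.0038 without CX3CR1-GFP 2B. On the rescaled TPM the median over all genes moved by -0.16, 0.08 and 0.24 on the log2 scale in the 3 comparisons, in that order, and the split of all calls changed sides. The share of calls that were higher went from 60.2% to 44.6% in CCR2-RFP minus double-negative (49.4% after quantile normalization), from 42.0% to 54.8% in CX3CR1-GFP minus double-negative and from 34.1% to 58.7% in CX3CR1-GFP minus CCR2-RFP (48.9% after quantile normalization). The member medians on the rescaled TPM were 0.40, 0.41 and 0.04, against -0.07, 0.04 and 0.13 over all genes.

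**Figure D2:**
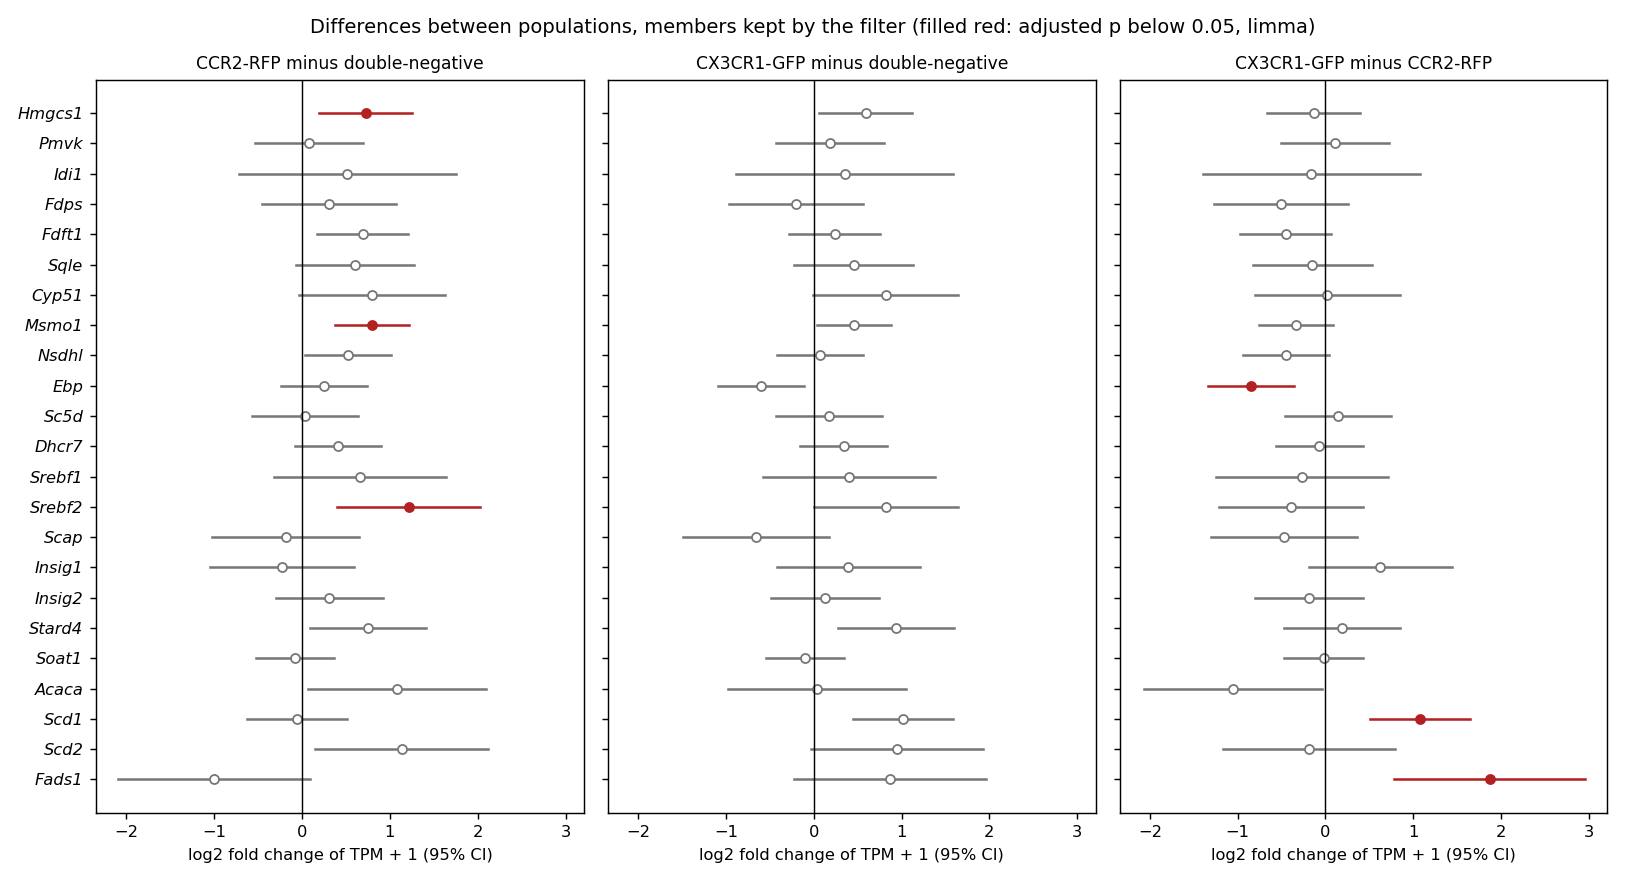
Log2 fold change of TPM + 1 (horizontal axis) with its 95% interval for each of the 23 tested members (vertical axis), 1 panel per comparison, with filled red points for adjusted p below 0.05. Hmgcs1, Msmo1 and Srebf2 are called in the first panel, no member in the second, and Ebp, Scd1 and Fads1 in the third.

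Among the 6 genes that lead from acetyl-CoA to isoprenoids, 1 of 4 tested was called, in CCR2-RFP against double-negative cells. Of all genes, 24.8% were called in that comparison. Hmgcs1, the cytosolic HMG-CoA synthase (chromosome 13, 119690379 to 119708260), was 1.84, 2.74 and 1.95 TPM in double-negative, 4.01, 4.83 and 3.86 in CCR2-RFP and 5.16, 3.93 and 2.53 in CX3CR1-GFP cells. It was higher in CCR2-RFP cells than in double-negative cells (log2 fold change 0.73, SE 0.238, 95% interval 0.20 to 1.25, limma adjusted p = 0.0484), and the libraries of these 2 populations did not overlap. The CX3CR1-GFP values overlapped both other populations (log2 fold change against double-negative 0.59, adjusted p = 0.268). The Hmgcs1 call sits at the threshold: adjusted p was 0.0518 with the sort as a replicate block, and it was called in 5 of 19 alternatives (0.0266 to 0.146). It was lost without any 1 double-negative library (0.0578 to 0.146), any 1 CCR2-RFP library (0.0861 to 0.139) or CX3CR1-GFP 2A (0.0518), and on the rescaled TPM (0.128). Idi1, the isopentenyl diphosphate isomerase, was 1.05, 1.78 and 0.0429 TPM in double-negative, 1.47, 4.40 and 0.301 in CCR2-RFP and 1.36, 2.85 and 0.368 in CX3CR1-GFP cells. In each population sort 2A was highest and 2B lowest, and no comparison was called. Fdps, which makes farnesyl diphosphate, was 0.198 to 2.06 TPM and Pmvk, the phosphomevalonate kinase, 0.761 to 2.36 TPM, with overlapping populations and no call. Mvk and Mvd, the kinase and decarboxylase of the same stretch, stayed at or below 1.10 and 1.03 TPM and were not tested. Of these genes, Hmgcs1 shares 12.1% of its exon bases with an antisense gene and Fdps 26.7% with a gene on its own strand, and since no source used here states the strand of counting, such reads cannot be told apart.

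Of the 11 genes from squalene to cholesterol, 8 were tested, and 1 was higher in CCR2-RFP cells than in double-negative cells and 1 lower in CX3CR1-GFP than in CCR2-RFP cells. Of all genes, 14.9% were higher in the first of these comparisons and 17.3% lower in the second. Msmo1, the sterol C4 methyl oxidase (chromosome 8, 64718139 to 64733792), was 3.78, 3.82 and 2.99 TPM in double-negative, 6.82, 6.56 and 7.12 in CCR2-RFP and 5.83, 5.94 and 4.03 in CX3CR1-GFP cells. The lowest CCR2-RFP library was above every library of the other populations. The rise over double-negative cells (log2 fold change 0.79, SE 0.189, 95% interval 0.37 to 1.21, limma adjusted p = 0.0111) was called under all 20 alternative settings. In CX3CR1-GFP cells it lay between the others (log2 fold change 0.46 against double-negative, adjusted p = 0.284, and -0.34 against CCR2-RFP, adjusted p = 0.223). Ebp, the sterol isomerase also known as emopamil-binding protein (chromosome X, 8185329 to 8193512), had the highest mean of the 11 genes in double-negative and CCR2-RFP cells. In CX3CR1-GFP cells Msmo1 was higher. Ebp was 7.52, 6.61 and 5.88 TPM in double-negative, 8.10, 6.55 and 9.82 in CCR2-RFP and 3.03, 5.39 and 3.95 in CX3CR1-GFP cells. It was lower in CX3CR1-GFP than in CCR2-RFP cells (log2 fold change -0.85, SE 0.220, 95% interval -1.34 to -0.36, limma adjusted p = 0.0170), and the 2 populations did not overlap. This call was lost when CCR2-RFP 2B (adjusted p = 0.0682) or CX3CR1-GFP 1 (adjusted p = 0.0579) was left out, and on the rescaled TPM (adjusted p = 0.0761).

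Fdft1, the squalene synthase, was 0.439, 0.735 and 0.573 TPM in double-negative, 1.07, 1.90 and 1.76 in CCR2-RFP and 0.452, 1.33 and 0.912 in CX3CR1-GFP cells. The CCR2-RFP and double-negative libraries did not overlap, but the difference missed the threshold (log2 fold change 0.69, adjusted p = 0.0548, and 0.0326 with the replicate block). Fdft1 shares 774 exon bases, 18.3% of its total, with the cathepsin gene Ctsb on the opposite strand, which was listed at 132 to 583 TPM, so its values are uncertain. Cyp51, the lanosterol demethylase, was 0.888, 1.44 and 0.340 TPM in double-negative, 3.04, 2.24 and 1.48 in CCR2-RFP and 2.41, 4.21 and 0.907 in CX3CR1-GFP cells, and Sqle, the squalene epoxidase, was 1.64, 1.66 and 0.534 TPM in double-negative, 2.49, 3.09 and 1.64 in CCR2-RFP and 3.20, 1.78 and 1.37 in CX3CR1-GFP cells. Neither was called in any comparison, and in both genes sort 2B was the lowest library of each population. Nsdhl, a sterol dehydrogenase, was 0.974 ± 0.288, 1.84 ± 0.425 and 1.08 ± 0.388 TPM in double-negative, CCR2-RFP and CX3CR1-GFP cells (mean ± SD, n = 3), Dhcr7, which catalyses the last step to cholesterol in one branch, was 0.809 ± 0.163, 1.41 ± 0.381 and 1.32 ± 0.526 TPM and Sc5d, the sterol C5 desaturase, was 2.23 ± 0.324, 2.31 ± 0.472 and 2.79 ± 1.49 TPM. None of the 3 was called. Lss, the lanosterol synthase, Tm7sf2, a sterol reductase, and Hsd17b7, a sterol ketoreductase, reached at most 1.17, 1.88 and 1.13 TPM and were not tested. Cyp51 shares 166 exon bases, 3.76% of its total, with Akap9 on the opposite strand, which was listed at 6.84 to 14.1 TPM. Tm7sf2 shares 12.1% with Vps51 on its own strand, listed at 2.26 to 6.33 TPM. The values of Cyp51 and Tm7sf2 are uncertain to that extent.

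Among SREBP genes and their controllers all 5 were tested and 1 was called, in CCR2-RFP against double-negative cells, where 24.8% of all genes were called. Srebf2, which encodes the SREBP that mainly drives sterol genes (chromosome 15, 82147181 to 82205379), was 8.95, 9.87 and 2.52 TPM in double-negative, 15.9, 18.7 and 13.3 in CCR2-RFP and 10.9, 13.2 and 11.6 in CX3CR1-GFP cells. The double-negative libraries were spread over 2.52 to 9.87 TPM and still lay below every library of the other populations. It was higher in CCR2-RFP cells than in double-negative cells (log2 fold change 1.22, SE 0.367, 95% interval 0.40 to 2.03, limma adjusted p = 0.0350). This call held in 12 of 20 alternatives and was lost without any 1 of the CCR2-RFP libraries (adjusted p = 0.0835 without 1, 0.103 without 2A and 0.0585 without 2B) and on the rescaled TPM (adjusted p = 0.0765). Without double-negative 2B the log2 fold change was 0.69 (adjusted p = 0.0322). Against double-negative cells the CX3CR1-GFP value was not called (log2 fold change 0.82, 95% interval 0.01 to 1.64, adjusted p = 0.326). Srebf1, whose SREBP drives mainly fatty acid genes, was 2.96, 1.35 and 0.701 TPM in double-negative, 3.60, 4.24 and 1.62 in CCR2-RFP and 1.56, 5.15 and 1.30 in CX3CR1-GFP cells, and the populations overlapped.

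Insig1, an endoplasmic reticulum anchor and itself a sterol-responsive gene, was 6.72, 4.72 and 3.39 TPM in double-negative, 4.48, 3.46 and 3.94 in CCR2-RFP and 5.54, 13.2 and 3.75 in CX3CR1-GFP cells. One library, CX3CR1-GFP 2A, stood above the other 8. Its paralog Insig2 was 2.21 ± 0.653, 2.97 ± 0.682 and 2.59 ± 1.25 TPM in double-negative, CCR2-RFP and CX3CR1-GFP cells, and the escort protein gene Scap was 4.76 ± 0.469, 4.37 ± 2.16 and 2.91 ± 1.65 TPM. None of the 3 was called, and for Scap the 95% interval of CX3CR1-GFP minus double-negative ran from -1.49 to 0.18 on the log2 scale.

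Of the genes that move or store sterol, Soat1 and Stard4 were tested and neither was called. Soat1, which esterifies cholesterol for storage (chromosome 1, 156424525 to 156474331), was the most abundant member in double-negative cells, at 19.2, 17.3 and 13.0 TPM in double-negative, 14.4, 15.0 and 16.9 in CCR2-RFP and 11.7, 18.0 and 16.5 in CX3CR1-GFP cells. The populations overlapped throughout, and the differences were small (log2 fold change -0.08, 95% interval -0.53 to 0.37, in CCR2-RFP minus double-negative, and -0.10, -0.55 to 0.34, in CX3CR1-GFP minus double-negative). Stard4, a cytosolic sterol carrier, was 2.62, 2.19 and 2.55 TPM in double-negative, 3.72, 8.94 and 3.14 in CCR2-RFP and 5.31, 5.51 and 6.00 in CX3CR1-GFP cells. Every library of both MHC class II-positive populations was above the highest double-negative library, yet no comparison was called (log2 fold change 0.75, adjusted p = 0.0976, in CCR2-RFP minus double-negative, and 0.94, adjusted p = 0.150, in CX3CR1-GFP minus double-negative). Acat2, the cytosolic acetoacetyl-CoA thiolase that feeds the pathway, was 0.0372 to 1.33 TPM and was not tested.

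Of 7 fatty acid genes 4 were tested, and 2 of these were higher in CX3CR1-GFP cells against CCR2-RFP cells, where 8.96% of all genes were, and none was lower. Scd1, a stearoyl-CoA desaturase that introduces the double bond of oleate (chromosome 19, 44394455 to 44407879), was 2.13, 2.37 and 2.17 TPM in double-negative, 1.24, 3.62 and 1.85 in CCR2-RFP and 5.85, 5.70 and 5.07 in CX3CR1-GFP cells. The CX3CR1-GFP libraries were close together and lay above all 6 others. Scd1 was higher in CX3CR1-GFP than in CCR2-RFP cells (log2 fold change 1.08, SE 0.255, 95% interval 0.51 to 1.65, limma adjusted p = 0.0107) under all 20 alternatives. Against double-negative cells the same gap was 1.02 on the log2 scale (95% interval 0.45 to 1.59), with adjusted p = 0.0725, and it was called in 4 of 20 alternatives. Its neighbour and paralog Scd2 (chromosome 19, 44293674 to 44306864) did not follow this order, at 0.328, 0.320 and 0.371 TPM in double-negative, 1.51, 4.10 and 0.980 in CCR2-RFP and 4.18, 0.952 and 0.710 in CX3CR1-GFP cells. Scd2 in the double-negative libraries was below every library of the other populations, with no call (log2 fold change 1.13, adjusted p = 0.0921, in CCR2-RFP minus double-negative). The paralogs have similar sequences, so the split of reads between them is uncertain. Scd1 is also an adipocyte gene. The summed TPM of 11 adipocyte markers was 10.7 to 17.3 in double-negative, 9.52 to 20.0 in CCR2-RFP and 20.1 to 30.9 in CX3CR1-GFP libraries, with Fabp4 at 10.7 to 17.8 TPM, Adipoq at 0.0889, 1.69 and 1.25 TPM and Plin1 at 0, 0.595 and 0.184 TPM in CX3CR1-GFP cells. Of the 3 adipocyte markers that passed the filter, Lipe was lower in CX3CR1-GFP than in CCR2-RFP cells, and Cfd and Fabp4 were not called. None of the 3 was called in CX3CR1-GFP against double-negative cells. The part of adipocyte RNA in the Scd1 difference was not tested.

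Fads1, the delta-5 desaturase of polyunsaturated fatty acids (chromosome 19, 10182888 to 10196877), was 4.51, 9.97 and 4.40 TPM in double-negative, 2.00, 1.77 and 3.89 in CCR2-RFP and 7.83, 28.2 and 6.67 in CX3CR1-GFP cells. It was higher in CX3CR1-GFP than in CCR2-RFP cells (log2 fold change 1.87, SE 0.490, 95% interval 0.78 to 2.96, limma adjusted p = 0.0178), the largest difference among the 23 tested members in any comparison. Every CCR2-RFP library was below all 6 others. The single value of 28.2 TPM in CX3CR1-GFP 2A raised this estimate: without that library the log2 fold change was 1.26 (adjusted p = 0.0303). The call was lost without CCR2-RFP 1 (adjusted p = 0.0567) or CCR2-RFP 2A (adjusted p = 0.0581). The double-negative mean lay between the others, and neither difference from it was called (95% interval -2.09 to 0.09 on the log2 scale, adjusted p = 0.177, for CCR2-RFP and -0.22 to 1.96, adjusted p = 0.451, for CX3CR1-GFP cells). Fads2, the delta-6 desaturase gene next to it on chromosome 19, was 0 to 0.522 TPM.

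Acaca, the acetyl-CoA carboxylase that commits acetyl units to fatty acids, was 2.79, 3.32 and 2.80 TPM in double-negative, 6.19, 13.2 and 4.76 in CCR2-RFP and 0.965, 3.67 and 6.26 in CX3CR1-GFP cells. Its double-negative libraries were close together and below every CCR2-RFP library, while CX3CR1-GFP values ran from the lowest to the second highest of all. The wide spread left every comparison without a call (log2 fold change 1.08, 95% interval 0.07 to 2.10, adjusted p = 0.119, in CCR2-RFP minus double-negative). Fasn, the fatty acid synthase, was 0.331, 0.291 and 0.389 TPM in double-negative, 0.987, 1.00 and 0.927 in CCR2-RFP and 0.917, 0.394 and 0.838 in CX3CR1-GFP cells, too low to be tested. The CCR2-RFP libraries lay within a narrow range, the lowest just above the highest of the other populations. Elovl6, which elongates palmitate, was 0.147 to 0.532 TPM and was not tested.

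**Figure D3:**
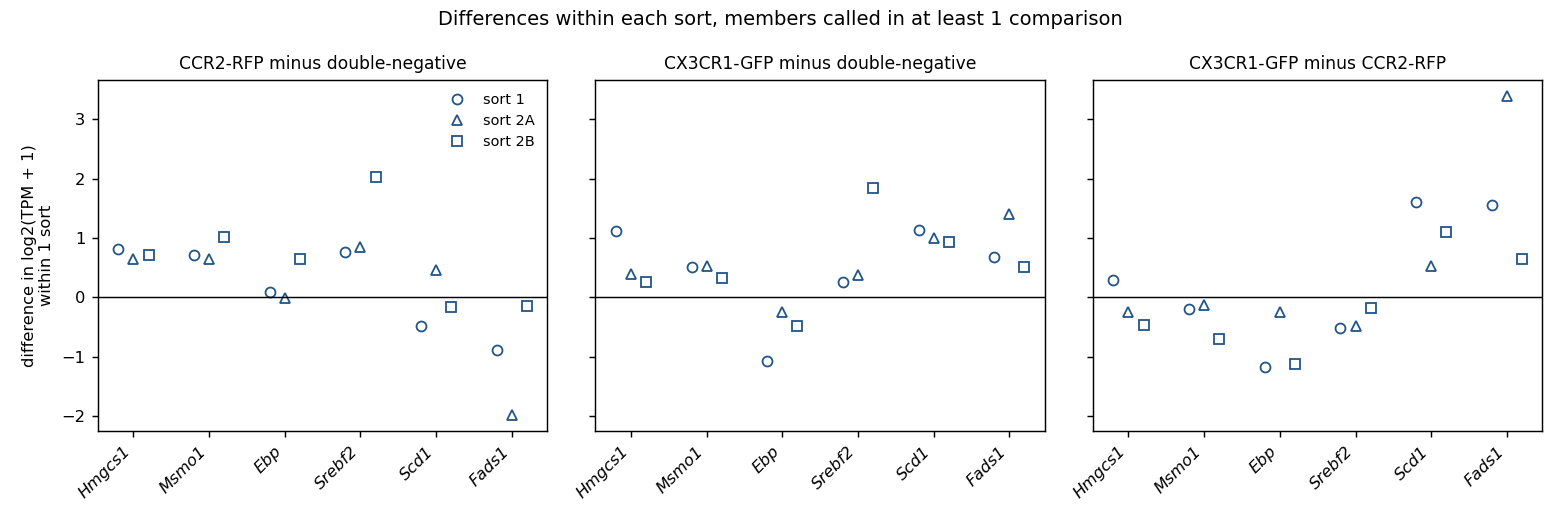
Differences in log2(TPM + 1) within each sort (vertical axis), 1 panel per comparison, for the 6 members called in at least 1 comparison (horizontal axis), with marker shapes for the sorts. Hmgcs1, Msmo1 and Srebf2 lie above 0 in all 3 sorts in the first panel, and in the third Ebp lies below 0 and Scd1 and Fads1 above 0 in all 3 sorts.

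Since the libraries of each called member did not overlap, its sign was fixed within every sort, and the sizes were as follows. In sorts 1, 2A and 2B, CCR2-RFP minus double-negative was 0.82, 0.64 and 0.72 for Hmgcs1 on the log2 scale, 0.71, 0.65 and 1.03 for Msmo1 and 0.77, 0.86 and 2.02 for Srebf2, the last value resting on the low Srebf2 level in double-negative 2B. In CX3CR1-GFP minus CCR2-RFP it was -1.17, -0.24 and -1.13 for Ebp, 1.61, 0.54 and 1.09 for Scd1 and 1.56, 3.40 and 0.65 for Fads1. Several of the highest member values came from the 2 libraries with the most muscle RNA: Acaca, Stard4, Idi1 and Srebf2 in CCR2-RFP 2A and Fads1, Insig1, Srebf1, Sc5d and Cyp51 in CX3CR1-GFP 2A. Without these 2 libraries, Msmo1 was still higher in CCR2-RFP cells than in double-negative cells (adjusted p = 0.0252), and Scd1 higher (adjusted p = 0.00423) and Ebp lower (adjusted p = 0.00750) in CX3CR1-GFP than in CCR2-RFP cells. Hmgcs1 (adjusted p = 0.132), Srebf2 (adjusted p = 0.105) and Fads1 (log2 fold change 1.10, adjusted p = 0.0757) were not called. Leaving out CCR2-RFP 2A and CX3CR1-GFP 2A did not even out muscle RNA between populations. The summed TPM of muscle genes was 44.5 and 37.9 in the remaining CCR2-RFP libraries and 187 to 336 in the others. The part of muscle RNA in the full result, or in that without these 2 libraries, was not tested.

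Genes next to the members in the same pathways were read from fixed lists. Of 8 other sterol and isoprenoid genes tested and reported here, 1 was called, and in 1 comparison, CX3CR1-GFP against CCR2-RFP cells. Pggt1b, a prenyltransferase subunit gene, was lower in CX3CR1-GFP than in CCR2-RFP cells (-0.56, adjusted p = 0.0269), a difference lost on the rescaled TPM and without any 1 CCR2-RFP library or CX3CR1-GFP 1 (called in 13 of 20 alternatives, highest adjusted p = 0.254).

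Among 14 other acetyl-CoA, elongation and acyl-CoA genes that passed the filter, 3 were higher in CCR2-RFP against double-negative cells, none was called in CX3CR1-GFP against double-negative, and 4 were lower in CX3CR1-GFP than in CCR2-RFP cells. Elovl5, an elongase of polyunsaturated fatty acids and thus a partner of Fads1 in the pathway, was 5.16, 5.98 and 6.03 TPM in double-negative, 31.2, 16.7 and 18.7 in CCR2-RFP and 2.88, 3.73 and 4.53 in CX3CR1-GFP cells. Its order was the opposite of that of Fads1: Elovl5 was higher in CCR2-RFP cells than in double-negative cells (log2 fold change 1.74, adjusted p = 0.000415) and lower in CX3CR1-GFP than in CCR2-RFP cells (-2.26, adjusted p = 8.43e-05). Fabp5, a fatty acid-binding protein gene, was 1.15 ± 0.283, 7.62 ± 0.661 and 0.852 ± 0.539 TPM in double-negative, CCR2-RFP and CX3CR1-GFP cells, with the same pair of calls (2.01, adjusted p = 0.000217, and -2.26, adjusted p = 0.000114). Acly, the ATP citrate lyase that supplies cytosolic acetyl-CoA, was 15.0 ± 1.42, 18.7 ± 2.01 and 9.91 ± 2.82 TPM in that order and was lower in CX3CR1-GFP than in CCR2-RFP cells (-0.88, adjusted p = 0.00774). The Acly call was lost on the rescaled TPM, after quantile normalization and without the 2 libraries highest in muscle markers (called in 17 of 20 alternatives, highest adjusted p = 0.0583). Tecr, a reductase of fatty acid elongation, made the remaining calls (0.68, adjusted p = 0.0401, called in 8 of 20 alternatives, highest adjusted p = 0.161, and -0.79, adjusted p = 0.0196, called in 13 of 20 alternatives, highest adjusted p = 0.129). Of 8 genes for SREBP processing and degradation reported here, Vcp, an ATPase that extracts proteins from the endoplasmic reticulum, was lower in CX3CR1-GFP than in CCR2-RFP cells (-0.80, adjusted p = 0.0296). That call was lost on the rescaled TPM and without CCR2-RFP 2A, CCR2-RFP 2B, CX3CR1-GFP 1 or CX3CR1-GFP 2B (called in 12 of 20 alternatives, highest adjusted p = 0.143).

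Sterol uptake and efflux genes went both ways. Of 11 uptake and lysosomal genes tested and reported here, 1 was higher and 2 were lower in CCR2-RFP against double-negative cells, and 1 was higher and 2 were lower in CX3CR1-GFP against CCR2-RFP cells. Mylip, a ubiquitin ligase gene that LXR controls, was 8.61 ± 1.58, 3.53 ± 0.553 and 3.96 ± 1.62 TPM in double-negative, CCR2-RFP and CX3CR1-GFP cells and was lower in CCR2-RFP cells than in double-negative cells (-1.08, adjusted p = 0.00889). Cd36, a scavenger receptor for lipids, was 504 ± 94.6, 85.7 ± 25.5 and 284 ± 39.6 TPM in that order, lower in CCR2-RFP cells than in double-negative cells (-2.58, adjusted p = 2.90e-05). The remaining calls of this list, named after their values were seen, were Osbp, a sterol-binding protein gene (0.57, adjusted p = 0.0407, in CCR2-RFP minus double-negative, called in 8 of 20 alternatives, highest adjusted p = 0.168, and -0.60, adjusted p = 0.0309, in CX3CR1-GFP minus CCR2-RFP, called in 10 of 20 alternatives, highest adjusted p = 0.212), Npc2, a lysosomal cholesterol carrier (-0.47, adjusted p = 0.0203, in CX3CR1-GFP minus CCR2-RFP, called in 12 of 20 alternatives, highest adjusted p = 0.746), and Cd36 (1.76, adjusted p = 0.000396) in the same comparison. None was called in CX3CR1-GFP against double-negative cells.

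Of 9 LXR and efflux genes tested, 1 was higher and 2 lower in CCR2-RFP against double-negative cells, 2 were lower in CX3CR1-GFP against double-negative cells, and 2 were higher and 3 lower in CX3CR1-GFP against CCR2-RFP cells. For CCR2-RFP against double-negative cells, the transporter genes Abca1 and Abcg1 went in opposite directions. Abca1, which loads cholesterol onto lipid-poor apolipoprotein, was 16.2, 18.4 and 19.0 TPM in double-negative, 3.90, 3.64 and 3.14 in CCR2-RFP and 16.1, 13.6 and 12.8 in CX3CR1-GFP cells. In CCR2-RFP cells it was lower than in double-negative cells (log2 fold change -2.05, SE 0.160, limma adjusted p = 1.23e-05). Abcg1, which passes cholesterol to HDL, was 0.936, 0.645 and 0.647 TPM in double-negative, 6.39, 6.07 and 8.91 in CCR2-RFP and 0.324, 0.584 and 0.499 in CX3CR1-GFP cells. It was higher in CCR2-RFP cells than in double-negative cells (2.21, SE 0.205, limma adjusted p = 3.20e-05). Abcg1 passed the filter only through its CCR2-RFP libraries, so the filter and this call rest on the same libraries. Apoe, the lipoprotein gene, was 1493 ± 36.2, 295 ± 73.7 and 1409 ± 222 TPM in double-negative, CCR2-RFP and CX3CR1-GFP cells (-2.37 in CCR2-RFP minus double-negative, adjusted p = 1.38e-05). No library of CCR2-RFP cells overlapped the other populations for any of these 3 genes. The calls in CX3CR1-GFP against double-negative cells, named after their values were seen, were Pltp, the phospholipid transfer protein (-1.15, adjusted p = 0.00174), and Smpdl3a, an LXR target (-0.95, adjusted p = 0.0349, called in 10 of 20 alternatives, highest adjusted p = 0.138). Both were also lower in CX3CR1-GFP than in CCR2-RFP cells (-1.32, adjusted p = 5.80e-05, and -1.15, adjusted p = 0.00205). Pltp shares 495 exon bases, 19.3% of its total, with the gene Ctsa on the opposite strand. Ctsa was listed at 22.5 to 61.0 TPM, so the Pltp values are uncertain. Of 3 oxysterol enzyme genes tested, Cyp27a1, the sterol 27-hydroxylase, was 28.0 ± 1.24, 8.42 ± 1.36 and 23.4 ± 3.78 TPM in that order and was lower in CCR2-RFP cells than in double-negative cells (-1.63, adjusted p = 6.14e-05). Ch25h, the cholesterol 25-hydroxylase, was 0.366, 0 and 0 TPM in double-negative, 0, 0 and 0.423 in CCR2-RFP and 3.61, 3.01 and 1.47 in CX3CR1-GFP cells and was higher in CX3CR1-GFP than in double-negative (1.69, adjusted p = 0.0102) and CCR2-RFP cells (1.67, adjusted p = 0.00141), the first of these calls being lost without double-negative 2A or 2B, with a pseudocount of 0.1 and with no filter (called in 15 of 19 alternatives, highest adjusted p = 0.0536). Ch25h passed the filter only through its CX3CR1-GFP libraries, so the filter and both calls rest on the same libraries.

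Of 5 other regulators of lipogenesis tested, 1 was higher and 1 lower in CCR2-RFP against double-negative cells, none was called in CX3CR1-GFP against double-negative, and 1 was higher and 1 lower in CX3CR1-GFP against CCR2-RFP cells. Pparg, a lipid-sensing nuclear receptor gene, was 0.447, 0.250 and 1.42 TPM in double-negative, 2.63, 2.69 and 2.62 in CCR2-RFP and 0.298, 1.89 and 1.25 in CX3CR1-GFP cells, and was higher in CCR2-RFP cells than in double-negative cells (1.16, adjusted p = 0.0262), a call lost on the rescaled TPM and without double-negative 1, double-negative 2A or any 1 CCR2-RFP library (called in 12 of 19 alternatives, highest adjusted p = 0.102). Its relative Ppard was 4.81 ± 1.03, 2.07 ± 0.425 and 4.14 ± 0.471 TPM in double-negative, CCR2-RFP and CX3CR1-GFP cells and was lower in CCR2-RFP cells than in double-negative cells (-0.91, adjusted p = 0.00876) and higher in CX3CR1-GFP than in CCR2-RFP cells (0.75, adjusted p = 0.0232, lost without CCR2-RFP 2B or CX3CR1-GFP 1, called in 16 of 19 alternatives, highest adjusted p = 0.0821). Mlx, the partner of the carbohydrate-responsive factor ChREBP, was lower in CX3CR1-GFP than in CCR2-RFP cells (-1.27, adjusted p = 0.0235), lost on the rescaled TPM and without CCR2-RFP 1, CCR2-RFP 2B or CX3CR1-GFP 2A (called in 13 of 20 alternatives, highest adjusted p = 0.0746). Of 10 fatty acid oxidation genes tested and reported here, Cpt1a, which controls entry of fatty acids into mitochondria, was lower in CX3CR1-GFP than in CCR2-RFP cells (-0.60, adjusted p = 0.0357). None of the 10 was called in CX3CR1-GFP against double-negative cells. The Cpt1a call was lost on the rescaled TPM and without CCR2-RFP 2A, CCR2-RFP 2B, CX3CR1-GFP 1 or CX3CR1-GFP 2A (called in 10 of 20 alternatives, highest adjusted p = 0.250).

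Of 8 cycling genes tested, 4 were higher and none lower in CCR2-RFP against double-negative cells, none was called in CX3CR1-GFP against double-negative, and 2 were lower in CX3CR1-GFP against CCR2-RFP cells. Of all genes, 14.9% were higher and 9.88% lower in the first comparison, 2.77% were called in the second and 17.3% were lower in the third. Their summed TPM was 26.2, 27.6 and 27.5 in double-negative, 43.3, 52.8 and 61.6 in CCR2-RFP and 28.6, 25.2 and 40.2 in CX3CR1-GFP cells. Birc5, a mitosis gene, was 0.178, 0.521 and 0.780 TPM in double-negative, 2.63, 2.92 and 2.58 in CCR2-RFP and 0.377, 0.900 and 1.28 in CX3CR1-GFP cells, with a log2 fold change of 1.33 in CCR2-RFP minus double-negative (adjusted p = 0.00237). The others called were Mki67 (1.58, adjusted p = 0.00953), Top2a (1.84, adjusted p = 0.00771) and Ccna2 (1.51, adjusted p = 0.0231), and Birc5 and Mki67 were those lower in CX3CR1-GFP cells. The calls of cycling genes were not followed under the alternatives. The part of cycling cells in the sterol gene differences was not tested.

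**Figure D4:**
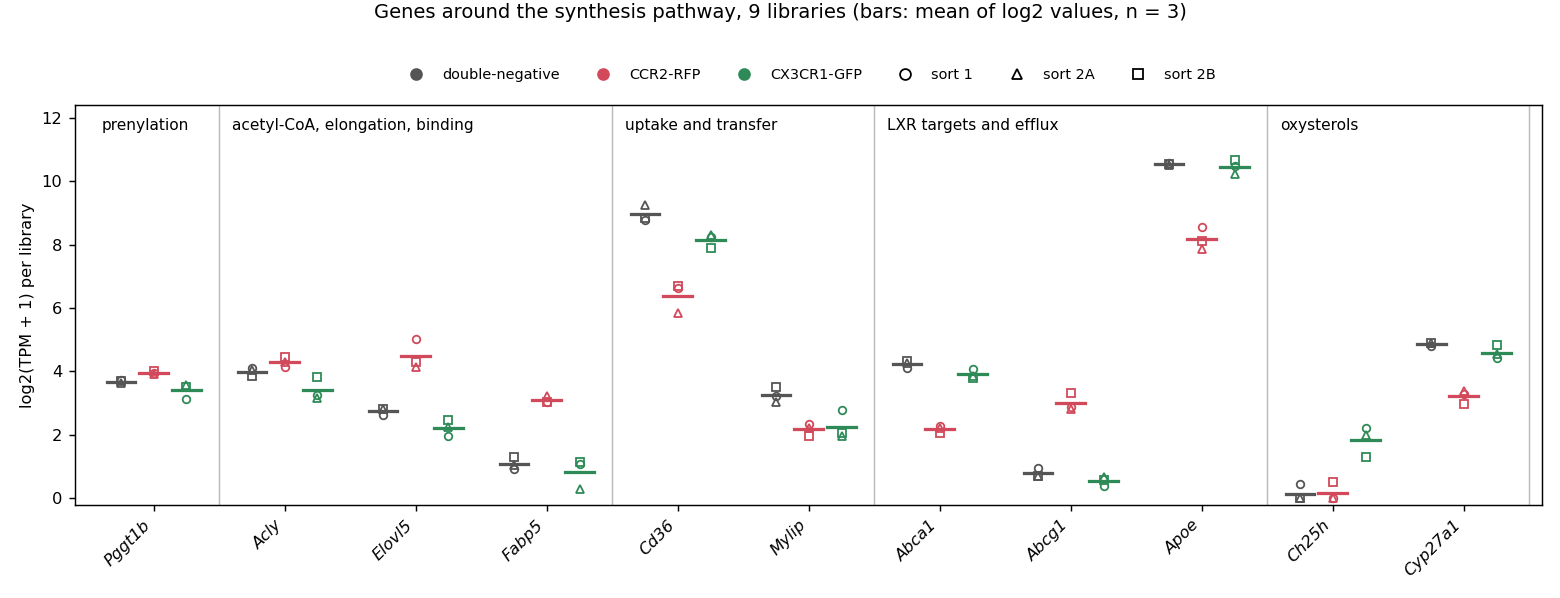
Log2(TPM + 1) of 11 genes around the synthesis pathway (vertical axis, 1 point a library) by gene (horizontal axis). All were called in at least 1 comparison, so they do not stand for their lists, which also hold uncalled genes. Populations differ in colour and sorts in marker shape, and bars are the mean of 3 log2 values. CCR2-RFP libraries lie above all others for Elovl5, Fabp5, Acly, Pggt1b and Abcg1 and below all others for Cd36, Abca1, Apoe and Cyp27a1.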

How the data were processed

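RNA-seq used 1 ng of total RNA a library, the Nugen Ovation SoLo kit and paired-end reads, per the labels' protocols. The deposited TPM table was made by the authors with bcl2fastq 2.18, cutadapt 1.8.3 and Salmon 0.11.3 on mm10, per the submitters' processing notes. No source used here gives the annotation, the summing of transcripts to genes or the strand setting. TPM holds no depth, so counting error is unknown. Samples were grouped by their titles, which equal the column headings, because the description field names the other reporter for 6 libraries. Ccr2 and Cx3cr1 levels fit the titles.

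Values were tested as log2(TPM + 1) with limma 3.58.1 (lmFit, eBayes with trend, R 4.3.3), on genes at 1 TPM or above in 3 or more libraries. All 9 libraries entered 1 fit, tests were two-sided, and fold changes on this scale understate those of low genes. The procedure was tested on simulated data, with changes planted only in better expressed genes. Many members lay below that level, so the simulation does not speak to them. The members and lists were chosen with earlier results of these data known. Members called and at 5 TPM or more in their highest population mean, and up to 3 called genes per other list by adjusted p, were to be named with all values. Hmgcs1, Birc5, Tecr and the uncalled members given by library, and the Srebf2 promoter, in which no match to TCACNCCAC was found, were chosen after their values were seen. Same-sort libraries of different populations deviated together weakly (correlations of deviations 0.0315 to 0.205, all 9 positive, 1 of 9 over 0.1). The 18 pairs from different sorts ran from -0.160 to 0.112. The sort was not taken to pair samples in the main fit and entered as a replicate block in an alternative. Gene positions are from GENCODE M21 (GRCm38). Alternatives changed the pseudocount, filter, scaling, trend, block and libraries used. Some genes of the lists are not reported here, and list counts are over the genes that are. Protein sequences were not used here.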

Additional observations from a re-analysis of the deposited data

How the results depend on the processing

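Of 1338 member differences recomputed under the alternatives, 1289 stayed on their side of the threshold, 29 lost a call, 20 gained one and none of the called ones reversed. Of 63 member differences that were not called, 25 changed sign in at least 1 alternative. Leaving out each library in turn gave 1 to 6 members higher in CCR2-RFP minus double-negative (6 without CX3CR1-GFP 1, 1 without CCR2-RFP 2A) and 0 to 1 lower (Fads1, without CX3CR1-GFP 2A), 0 to 2 higher in CX3CR1-GFP minus double-negative (Scd1 and Stard4, without CCR2-RFP 2A), and 1 to 2 higher and 0 to 2 lower in CX3CR1-GFP minus CCR2-RFP (0 without CCR2-RFP 2B or CX3CR1-GFP 1). Over all genes, CX3CR1-GFP minus double-negative gave 281 calls, 132 to 257 with 1 library left out (136 without double-negative 1, 132 without 2A, 149 without 2B and 177 without CX3CR1-GFP 2A) and 146 with no filter on low values. With no filter, 1 member was higher in CCR2-RFP minus double-negative and 1 in CX3CR1-GFP minus CCR2-RFP. On the rescaled TPM, 1 was higher in the former and 0 were lower in the latter. Fitting only the populations compared gave 5 and 1 higher over double-negative in CCR2-RFP and CX3CR1-GFP cells, and a pseudocount of 5 or quantile normalization gave 1 higher (Scd1) in the latter. Leaving out the 2 libraries highest in muscle markers, chosen after seeing the data, gave 1 member higher in CCR2-RFP minus double-negative and 1 in CX3CR1-GFP minus CCR2-RFP. The cause of these shifts was not tested. With the sort as a replicate block, CCR2-RFP minus double-negative still had 3 members higher, with Fdft1 (log2 fold change 0.69) in place of Hmgcs1 (0.73), and no other member call changed. TPM gives no depth, so what depth limits could not be read, and with 3 libraries a population small differences among genes under 2 TPM may have been missed.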

Other observations

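Nr1d1, a circadian repressor gene that was among the lipogenic regulators, was 27.0, 4.01 and 18.0 TPM in double-negative, 4.72, 1.84 and 3.61 in CCR2-RFP and 17.1, 4.94 and 13.8 in CX3CR1-GFP cells, and it was lowest in sort 2A in each population. The summed TPM of 7 fibroblast genes was also lowest in sort 2A in each population, at 74.1, 13.4 and 114 in double-negative, 43.7, 13.3 and 61.1 in CCR2-RFP and 82.7, 49.2 and 131 in CX3CR1-GFP cells. Idi1 ran the other way, with its highest value in sort 2A in each population. The labels do not say what differed between the sorts, and these orders were seen in the values and not tested.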
